A study of Mus musculus with 12 samples.

Results

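The genes described here encode the machinery by which a macrophage shows peptides to CD4+ T cells and the ligands that accompany that signal. They were the 10 rows of the deposited count table, of 57010 in all, whose Ensembl identifiers map to H2-Aa, H2-Ab1 and H2-Eb1 (chains of MHC class II), H2-DMa, H2-DMb1 and Cd74 (peptide loading), Ciita (the class II transactivator), and Cd40, Cd80 and Cd86 (costimulation). All 10 passed the filter on low counts. The cells were large peritoneal macrophages from female mice, either wild type (WT) or without the scavenger receptor Tim4 (Tim4KO). Each genotype was sampled naive, or 24 h after 8-week-old mice had received ID8ZGO by intraperitoneal injection. ID8ZGO is a form of the mouse ovarian tumour line ID8 that makes the green fluorescent protein ZsGreen and ovalbumin (OVA). The 4 groups are named by genotype and condition (WT naive, WT ID8, Tim4KO naive and Tim4KO ID8). Each had 3 libraries with the numbers of the labels, and the study asked how uptake of tumour cells changes transcription with and without Tim4.

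The sort bears directly on these genes. In every group cells were gated as F4/80high and low for MHC class II protein, so class II mRNA was measured in cells already selected for little class II on their surface, and nothing here describes peritoneal cells with much of it. In the challenged groups the gate also required ZsGreen, which marks uptake of tumour material, so that challenge and uptake cannot be told apart. The labels do not say whether the libraries of a group came from separate mice, and p-values therefore measure the spread between libraries, which may be technical. Nor do they give the Tim4KO allele or the strain. In bulk RNA, fewer cells of a type and less RNA per cell cannot be told apart.

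MHC class II molecules are pairs of an alpha and a beta chain: H2-Aa with H2-Ab1 form I-A, and H2-Eb1 is the beta chain of I-E. The invariant chain, encoded by Cd74, fills the groove of new class II molecules until endosomal proteases trim it, and H2-DM, a dimer of the H2-DMa and H2-DMb1 products, then exchanges the last invariant chain fragment for peptide. CIITA does not bind DNA itself. It is recruited by RFX, CREB and NF-Y proteins that sit on neighbouring sites, the X and Y boxes, just before class II genes, and interferon gamma is its classical inducer in macrophages. CD80 and CD86 engage CD28 and CTLA-4 on T cells, and CD40 receives the CD40 ligand signal from them.

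Libraries held 7358559 (Tim4KO naive 2) to 23170244 (WT ID8 3) counts, and a level of 3 counts, below which a gene is not told from 0, amounted to between 0.137 and 0.399 CPM (counts scaled to a common library total). Timd4, the targeted gene, ran from 882 to 1489 CPM in WT libraries and from 1.38 to 7.71 CPM in Tim4KO libraries, which fits each genotype label. Markers of large peritoneal macrophages were abundant, with a summed level of 33333 to 48121 CPM over 12 genes. Gata6, their defining transcription factor, averaged 136 to 179 CPM in the 4 groups. Reads in olfactory and vomeronasal receptor genes, used as a measure of background, had their minimum in WT ID8 3 (5.57 CPM) and their maximum in WT naive 1 (862 CPM). These background values are scaled to raw library totals, and all other levels are CPM normalized by TMM (trimmed mean of M values).

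The clearest features of the 10 genes were as follows. The 6 class II genes rose and fell together from library to library, with a spread within groups that was wide for genes of their abundance. Between naive Tim4KO and naive WT cells, 0 of the 10 genes were called (edgeR adjusted p under 0.05), where 0.0439% of all 15943 tested genes were. Between Tim4KO ID8 and WT ID8 0 of 10 were called as well, against 0.0565% of all genes. In WT cells 3 of 10 were called between ID8 and naive, against 31.8% of all genes: H2-DMa and Ciita fell, as did 12.3% of all genes, and Cd80 rose, as did 19.5%. Of these 3 calls, Ciita alone was kept with the replicate number as a block, and none in a fit to the 2 WT groups only. In Tim4KO cells 1 of 10 was called, Cd86, which fell, against 16.6% of all genes called and 5.06% called lower. The shares of called members in both challenge comparisons were thus near or below those of all genes. Directions are relative to TMM scaling, under which 61.3% of all called genes in WT cells and 69.5% in Tim4KO cells were higher after challenge. With upper-quartile scaling these shares were 33.9% and 48.7%, and the median change of all genes moved from -0.04 to -0.28 and from -0.05 to -0.17 on the log2 scale. H2-DMa, Ciita, Cd80 and Cd86 kept their direction under that scaling.

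**Figure D1:**
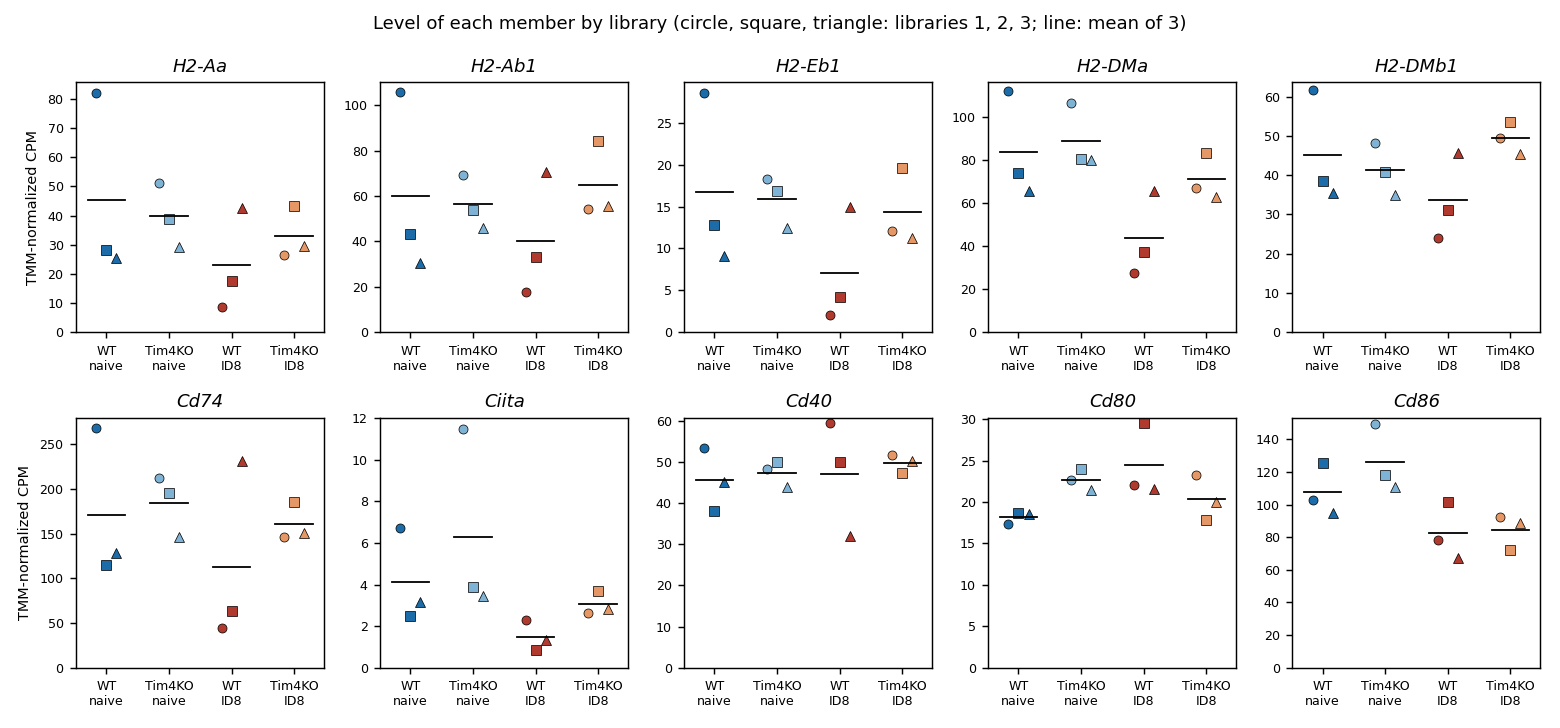
Level of each of the 10 genes in every library, as TMM-normalized CPM on axes that start at 0; circles, squares and triangles are libraries 1, 2 and 3 of a group and the line is their mean. The 6 class II genes share a pattern in which WT naive 1 is the highest library and WT ID8 1 the lowest, while Cd40, Cd80 and Cd86 do not follow it.

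The promoters of the class II genes are shown because the results turn on genes that moved together. RefSeq's table for GRCm38.p6 gave windows from 250 bases before to 50 after the start for 5 of 9 member genes searched: H2-Aa, H2-Eb1, H2-DMa, H2-DMb1 and Cd80. Both strands were searched for TGATTGG, the core of the Y box, and for GNAACT, a part of the X box that was chosen after these windows had been read. Of all 32851 windows in the table, 7.82% held the first, 42.8% the second, and 0.396% held GNAACT at most 50 bases before TGATTGG on the same strand. That pair was found in H2-Aa (chr17:34287774-34288073, minus strand), H2-Eb1 (chr17:34305617-34305916, plus strand) and H2-DMb1 (chr17:34152941-34153240, plus strand), printed below 5′ to 3′ with both elements in capitals.
H2-Aa: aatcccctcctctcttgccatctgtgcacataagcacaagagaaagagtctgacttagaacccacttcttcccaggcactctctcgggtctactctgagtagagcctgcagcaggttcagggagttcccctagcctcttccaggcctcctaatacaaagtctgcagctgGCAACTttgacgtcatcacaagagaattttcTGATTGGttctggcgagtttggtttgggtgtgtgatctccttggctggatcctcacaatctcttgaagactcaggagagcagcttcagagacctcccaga
H2-Eb1: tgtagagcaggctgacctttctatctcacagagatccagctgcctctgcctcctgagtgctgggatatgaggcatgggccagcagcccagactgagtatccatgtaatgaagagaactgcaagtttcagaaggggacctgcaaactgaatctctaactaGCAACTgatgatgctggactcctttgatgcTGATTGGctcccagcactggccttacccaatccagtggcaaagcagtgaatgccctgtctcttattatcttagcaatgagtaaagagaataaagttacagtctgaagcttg
H2-DMb1: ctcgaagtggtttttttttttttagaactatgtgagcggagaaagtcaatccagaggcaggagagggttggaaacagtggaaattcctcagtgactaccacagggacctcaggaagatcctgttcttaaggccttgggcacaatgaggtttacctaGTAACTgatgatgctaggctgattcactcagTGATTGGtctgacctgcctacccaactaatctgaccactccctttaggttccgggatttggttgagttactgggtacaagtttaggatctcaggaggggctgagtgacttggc
In these windows 25, 24 and 25 bases lie between the elements, and TGATTGG begins 50, 61 and 63 bases before the start of H2-Aa, H2-Eb1 and H2-DMb1. The pair was not found in the windows of H2-DMa, which has 2, of Cd80 or of H2-DMb2. A match is a description of the letters and no evidence of binding.

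H2-Aa, the I-A alpha chain gene on chromosome 17 (ENSMUSG00000036594), showed the pattern of the class II chains. Its levels were 82.0, 28.2 and 25.4 CPM in WT naive libraries 1, 2 and 3, and 51.0, 38.9 and 29.2 CPM in Tim4KO naive. After challenge they were 8.75, 17.6 and 42.5 CPM in WT ID8 and 26.6, 43.4 and 29.5 CPM in Tim4KO ID8. The highest and lowest libraries, WT naive 1 and WT ID8 1, were both WT, and every pair of groups overlapped. The group means ran from 45.2 ± 31.9 CPM in WT naive to 23 ± 17.5 CPM in WT ID8 (SD, n = 3 each). The change with challenge in WT cells was -0.93 on the log2 scale (SE 0.62, 95% interval -2.34 to 0.48, edgeR adjusted p = 0.265), and in Tim4KO cells -0.26 (interval -1.66 to 1.13, edgeR adjusted p = 0.810).

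H2-Ab1 (ENSMUSG00000073421), which encodes the partner chain, reached 106, 43.3 and 30.5 CPM in WT naive and 69.3, 53.8 and 45.8 CPM in Tim4KO naive. In challenged cells it stood at 17.6, 33.0 and 70.5 CPM in WT ID8 and at 54.2, 84.0 and 55.7 CPM in Tim4KO ID8. The 2 lower WT ID8 libraries lay below every Tim4KO ID8 library, while WT ID8 3 lay among them. Its difference between the ID8 groups was 0.66 (SE 0.56, 95% interval -0.62 to 1.93, edgeR adjusted p = 0.662). With challenge the gene changed by -0.54 in WT cells (interval -1.81 to 0.74, edgeR adjusted p = 0.475) and by 0.20 in Tim4KO cells (interval -1.07 to 1.47, edgeR adjusted p = 0.845). Leaving out WT naive 1 turned the WT value to 0.16 (edgeR adjusted p = 0.833), so even the direction of this change rested on that library.

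H2-Eb1 (ENSMUSG00000060586), the I-E beta chain gene, was the least abundant of the 3 chains per kilobase of exon, at a mean of 3.64 to 8.63 CPM per kb in the 4 groups against 15.7 to 25.2 for H2-Ab1 and 6.05 to 11.9 for H2-Aa. It had the widest span of the class II genes, 13.8-fold between the extreme libraries. The values were 28.5, 12.8 and 9.08 CPM in WT naive, 18.3, 16.9 and 12.4 CPM in Tim4KO naive, 2.07, 4.21 and 15.0 CPM in WT ID8, and 12.1, 19.6 and 11.3 CPM in Tim4KO ID8. The 18 and 49 counts behind WT ID8 1 and 2 were the lowest of the 12 libraries. Its change with challenge in WT cells, -1.16 (SE 0.65, 95% interval -2.63 to 0.31), did not pass (edgeR adjusted p = 0.192), nor did the difference of 0.94 between the ID8 groups (SE 0.65, interval -0.53 to 2.41, edgeR adjusted p = 0.573).

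The remaining class II chains were low. H2-Ea-ps, annotated as a polymorphic pseudogene of the I-E alpha chain, H2-Eb2 and H2-Oa stayed at or below 0.542 CPM in every library, and none of these was tested. H2-Ob, the beta chain of the H2-DM inhibitor H2-O, ran from 0.575 to 6.17 CPM, and H2-DMb2 from 1.5 to 4.8 CPM. Because H2-DMb2 and H2-DMb1 are near-identical copies, the split of reads among the pair is uncertain.

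Among the loading genes, H2-DMa (ENSMUSG00000037649) was the one called with challenge in WT cells. It was measured at 112, 74.1 and 65.8 CPM in WT naive, 107, 80.4 and 79.9 CPM in Tim4KO naive, 27.7, 37.3 and 65.8 CPM in WT ID8, and 67.0, 83.2 and 62.9 CPM in Tim4KO ID8. WT ID8 3 was level with the lowest naive WT library, and the other 2 WT ID8 libraries lay below all 10 remaining ones. H2-DMa fell by 0.93 on the log2 scale in WT cells (SE 0.29, 95% interval -1.56 to -0.30, edgeR adjusted p = 0.0298), and its change in Tim4KO cells was -0.33 (SE 0.29, interval -0.95 to 0.30, edgeR adjusted p = 0.489). With the replicate number as a block the value was -0.92 and no longer passed (edgeR adjusted p = 0.0634), nor did it in a fit to the 2 WT groups only (-1.03, edgeR adjusted p = 0.0936). The call was lost in 6 of the 12 fits that each left out 1 library (WT naive 1 or 2, WT ID8 1 or 2, Tim4KO naive 3, Tim4KO ID8 2), with edgeR adjusted p up to 0.118, and became 6.77e-05 without WT ID8 3. Exons of H2-DMa share 360 bp with Brd2 on the opposite strand, and how strand was handled is not given in the sources used here.

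H2-DMb1 (ENSMUSG00000079547), the partner of H2-DMa, varied less than the other class II genes. Levels were 61.7, 38.5 and 35.5 CPM in WT naive, 48.2, 40.7 and 35.0 CPM in Tim4KO naive, 23.9, 31.1 and 45.8 CPM in WT ID8, and 49.5, 53.5 and 45.4 CPM in Tim4KO ID8. The Tim4KO ID8 libraries sat high and close together, and WT ID8 3 overlapped them by a narrow margin. Its difference between the ID8 groups was 0.55 (SE 0.24, 95% interval 0.04 to 1.05), with an unadjusted p of 0.0379 and an edgeR adjusted p of 0.386. The same comparison gave 0.69 for H2-DMa (SE 0.29, interval 0.06 to 1.32, edgeR adjusted p = 0.377). With challenge H2-DMb1 changed by -0.41 in WT cells (interval -0.92 to 0.10, edgeR adjusted p = 0.190) and by 0.26 in Tim4KO cells (interval -0.25 to 0.77, edgeR adjusted p = 0.501).

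Cd74 (ENSMUSG00000024610, chromosome 18) was the most abundant of the 10 genes per kilobase of exon, with group means of 67.5 to 110 CPM per kb. Its levels were 269, 114 and 128 CPM in WT naive, 212, 195 and 146 CPM in Tim4KO naive, 44.4, 63.6 and 232 CPM in WT ID8, and 146, 185 and 151 CPM in Tim4KO ID8. Within WT ID8 the third library held 5.22-fold more than the first, while the Tim4KO ID8 libraries lay within 1.27-fold of each other. The change with challenge in WT cells was -0.58 (SE 0.59, 95% interval -1.91 to 0.76, edgeR adjusted p = 0.463), and the difference between the ID8 groups was 0.50 (interval -0.84 to 1.83, edgeR adjusted p = 0.762).

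Ciita (ENSMUSG00000022504), which governs transcription of the genes above, was scarce, with 10 to 140 counts per library, so that counting error is a larger part of its spread. Its levels were 6.72, 2.47 and 3.14 CPM in WT naive, 11.5, 3.86 and 3.44 CPM in Tim4KO naive, 2.30, 0.859 and 1.32 CPM in WT ID8, and 2.61, 3.69 and 2.82 CPM in Tim4KO ID8. Every WT ID8 library lay below every library of the other groups. Ciita fell with challenge in WT cells by 1.47 on the log2 scale (SE 0.53, 95% interval -2.60 to -0.34, edgeR adjusted p = 0.0475), from a mean of 4.11 ± 2.28 to 1.49 ± 0.736 CPM (SD, n = 3 each). Between WT ID8 and WT naive alone, libraries failed to overlap, in either direction, for 2 of the 10 genes and for 44.4% of all tested genes. The share of all genes with WT ID8 below every other group was not counted. In Tim4KO cells the value was -1.05 (SE 0.49, interval -2.10 to 0.00, edgeR adjusted p = 0.167) and the groups overlapped.

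The WT call for Ciita was weakly held. It was lost in 8 of the 12 fits that left out 1 library (WT naive 1 or 3, WT ID8 2 or 3, Tim4KO naive 2 and any Tim4KO ID8 library), with edgeR adjusted p up to 0.209. It was kept in 5 of 8 other settings, the replicate block among them (-1.40, edgeR adjusted p = 0.0190). It was lost with limma voom (-1.37, adjusted p = 0.0901), in a fit to the 2 WT groups only (-1.57, edgeR adjusted p = 0.0653) and with the background reads as a covariate (-0.92, edgeR adjusted p = 0.425). Between the ID8 groups Ciita was higher in all 3 Tim4KO libraries, a pattern shared by 7.06% of all genes, yet its difference of 1.06 did not pass (SE 0.53, 95% interval -0.08 to 2.19, edgeR adjusted p = 0.435). Exons of Ciita share 329 bp with Dexi on the opposite strand.

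Cd40 (ENSMUSG00000017652, chromosome 2) was the steadiest across groups, with means of 45.5 ± 7.68, 47.4 ± 3.23, 47.2 ± 13.9 and 49.8 ± 2.21 CPM (SD, n = 3 each) in naive WT, naive Tim4KO, challenged WT and challenged Tim4KO cells. The WT ID8 libraries were the most spread, at 59.4, 50.0 and 32.1 CPM. Here WT ID8 3 was the lowest of the 12 libraries, whereas it was the highest of the WT ID8 libraries for the class II genes. The challenge differences were 0.05 in WT cells (SE 0.19, 95% interval -0.35 to 0.44, edgeR adjusted p = 0.858) and 0.07 in Tim4KO cells (interval -0.32 to 0.47, edgeR adjusted p = 0.820). Their sign turned with upper-quartile scaling, to -0.20 and -0.04.

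Cd80 (ENSMUSG00000075122, chromosome 16) was the scarcer CD28 ligand gene, at 17.3, 18.7 and 18.5 CPM in WT naive, 22.6, 24.0 and 21.5 CPM in Tim4KO naive, 22.1, 29.6 and 21.6 CPM in WT ID8, and 23.3, 17.8 and 20.1 CPM in Tim4KO ID8. The WT naive libraries were close together and low, and 8 of the 9 others exceeded them. Cd80 rose with challenge in WT cells by 0.42 (SE 0.15, 95% interval 0.10 to 0.75, edgeR adjusted p = 0.0468), with every WT ID8 library above every WT naive one. In Tim4KO cells the value was -0.15 (interval -0.48 to 0.17, edgeR adjusted p = 0.550). With the replicate number as a block the WT value was 0.42 and did not pass (edgeR adjusted p = 0.0620). The WT call was made in 0 of 8 other settings, where upper-quartile scaling lowered the value to 0.18 (edgeR adjusted p = 0.303), and in 6 of the 12 fits that left out 1 library, with edgeR adjusted p up to 0.180 without WT ID8 2. The calls were lost without any WT naive library, WT ID8 2, Tim4KO naive 3 or Tim4KO ID8 3.

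Cd80 was also the member nearest to a genotype difference in naive cells. All 3 Tim4KO naive libraries exceeded all 3 WT naive libraries, as for 7.34% of all genes, by 0.32 on the log2 scale (SE 0.15, 95% interval -0.01 to 0.64, edgeR adjusted p = 0.793). The interaction, which is the Tim4KO response to challenge minus the WT response, was -0.57 for Cd80 (SE 0.22, interval -1.03 to -0.11), with an unadjusted p of 0.0180 and an edgeR adjusted p of 0.668. It follows that a different Cd80 response in the genotypes was not shown.

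Cd86 (ENSMUSG00000022901, chromosome 16), the more abundant CD28 ligand gene, had lower means in challenged cells of both genotypes. It stood at 103, 126 and 94.5 CPM in WT naive, 149, 118 and 111 CPM in Tim4KO naive, 78.3, 102 and 67.5 CPM in WT ID8, and 92.3, 71.9 and 88.8 CPM in Tim4KO ID8. In Tim4KO the naive and ID8 libraries did not overlap, and in WT a single ID8 library reached into the naive range. Cd86 fell by 0.58 on the log2 scale in Tim4KO cells (SE 0.17, 95% interval -0.95 to -0.21, edgeR adjusted p = 0.0324), as the 1 of 10 members whose libraries did not overlap, against 41.9% of all genes. Its change in WT cells was -0.39 (SE 0.17, interval -0.75 to -0.02, edgeR adjusted p = 0.0947), called by DESeq2 (adjusted p = 0.0405) and with upper-quartile scaling (-0.63, edgeR adjusted p = 0.00820).

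The Tim4KO call for Cd86 was made in 8 of 8 other settings that kept all libraries. It was made in 0 of the 6 fits that left out a Tim4KO library, where the value lay between -0.65 and -0.42 and the edgeR adjusted p between 0.0534 and 0.204. The interaction for Cd86 was -0.19 (SE 0.24, 95% interval -0.71 to 0.33, edgeR adjusted p = 0.837). The difference between the ID8 groups was 0.03 (interval -0.33 to 0.40, edgeR adjusted p = 0.954).

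**Figure D2:**
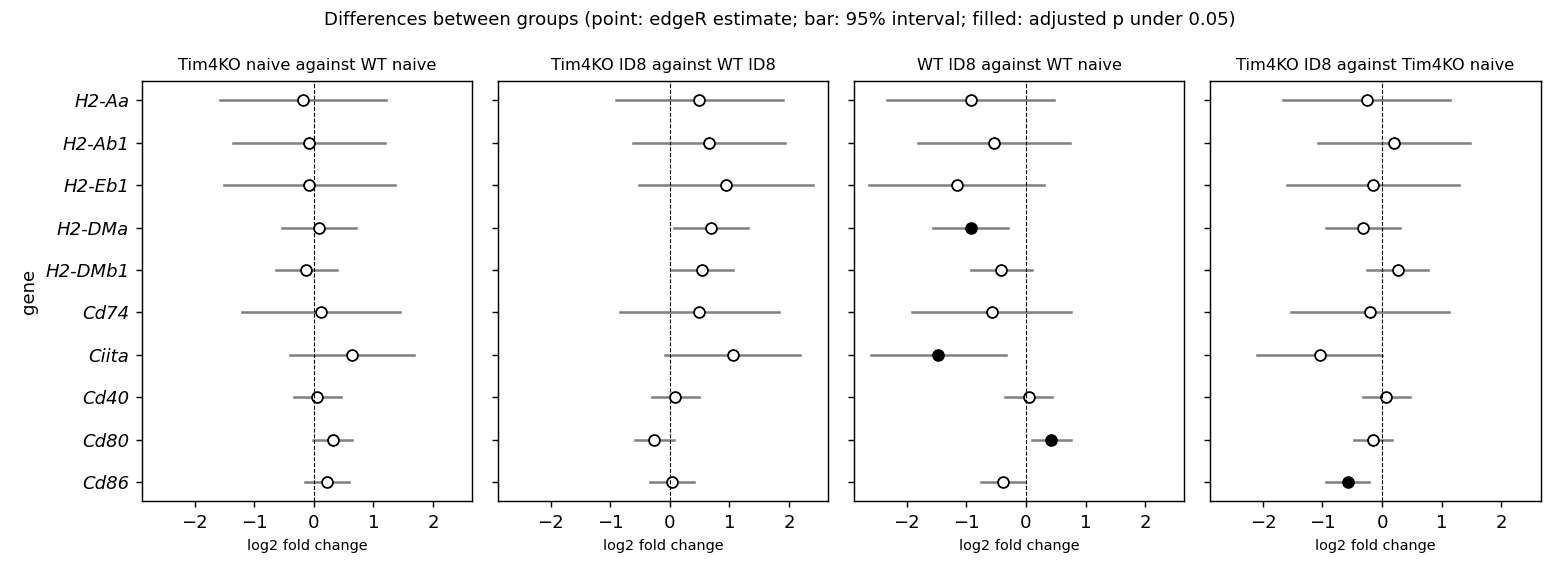
Log2 fold change of each gene in the 4 comparisons between groups; points are edgeR estimates, bars their 95% intervals, and filled points have an adjusted p under 0.05. The intervals of H2-Aa, H2-Ab1, H2-Eb1 and Cd74 span more than 2 log2 units in each comparison, and the filled points are H2-DMa, Ciita and Cd80 in WT cells and Cd86 in Tim4KO cells.

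The 10 members are set beside all genes here as a description. Their median log2 difference between Tim4KO ID8 and WT ID8 was 0.52, with 9 of 10 positive, against a median of 0.01 and 8217 of 15943 positive over all genes. None was called by edgeR, DESeq2 or limma voom, and 2 had an unadjusted edgeR p under 0.05, as had 1935 of all 15943 genes. In naive cells the median was 0.07, with 6 of 10 positive, against -0.004 and 7888 of 15943 positive over all genes. There 0 members had an unadjusted edgeR p under 0.05, against 999 of all genes, and 0 were called by edgeR, DESeq2 or limma voom. With challenge the median was -0.56 in WT cells, with 8 of 10 negative, and -0.18 in Tim4KO cells, with 7 of 10 negative. Over all 15943 genes the medians were -0.04 and -0.05, with 8289 and 8583 negative. The interaction had a median of 0.51, with 8 of 10 positive, against 0.01 and 8120 of 15943 positive over all genes. By edgeR, DESeq2 or limma voom 0 members were called for it (0.0% of all genes by edgeR). Its unadjusted edgeR p was under 0.05 for 1 member and for 1186 of all genes. Because the class II genes moved together, as described next, these counts do not amount to as many separate observations. They also rested on single libraries: without WT ID8 1 the difference between the ID8 groups was 0.06 for H2-Aa, 0.06 for Cd74, 0.25 for H2-Ab1 and 0.31 for H2-DMb1.

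When group means were taken off, the 6 class II genes deviated together: Pearson's r over the 12 libraries lay between 0.92 and 0.99 for their 15 pairs. Those deviations share the libraries and the scaling. The same deviations correlated with those of Ciita at 0.22 to 0.41, and with those of Cd40, Cd80 and Cd86 at -0.53 to -0.12. WT naive 1 had the highest and WT ID8 1 the lowest level of all 6 class II genes. Within WT ID8 the third library was highest for 6 of 6, by 4.86-fold over the lowest for H2-Aa, 4-fold for H2-Ab1 and 7.23-fold for H2-Eb1, where the Tim4KO ID8 libraries spanned 1.63-fold, 1.55-fold and 1.73-fold.

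**Figure D3:**
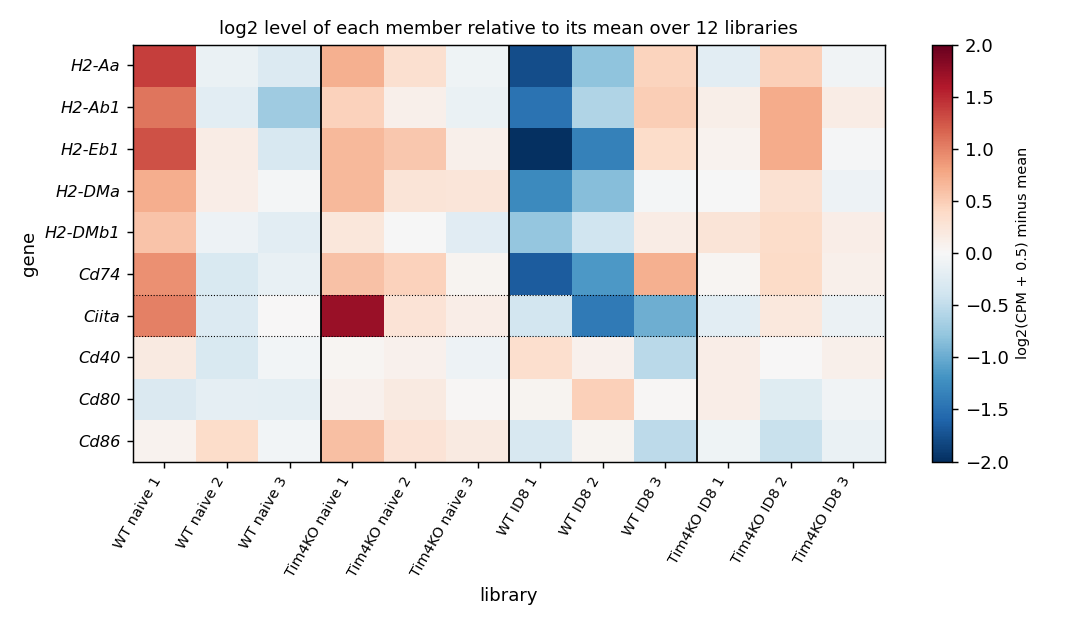
Log2(CPM + 0.5) of each gene minus its mean over the 12 libraries, with libraries in columns grouped by genotype and condition, and genes in rows. All 6 class II rows have their lowest value in WT ID8 1 and their highest in WT naive 1, which the rows of Cd40, Cd80 and Cd86 do not share.

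This spread within groups was unusual for genes of like abundance. For H2-Aa the SD within groups was 0.77 on the log2 scale, where genes of like mean count had a median of 0.18 and 99.2% of them a smaller one. The shares were 99.4% for H2-Ab1, 99.6% for Cd74, 96.6% for H2-Eb1, 96.3% for H2-DMa and 92.0% for H2-DMb1. Ciita, at 0.63, exceeded 91.1% of its like. Cd40 exceeded 82.2% and Cd86 78.3%, whereas Cd80, with an SD of 0.16, exceeded 29.5%. The class II genes thus varied more between libraries of a group than most genes of their abundance, and Cd80 did not.

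How the class II genes compared between groups depended on single WT libraries. Without WT ID8 3, edgeR called 5 members with challenge in WT cells, against 29.4% of the 17374 genes then tested (19.2% higher, 10.2% lower). H2-Eb1 (log2 change -2.31, adjusted p = 0.0214), Cd74 (-1.62, adjusted p = 0.0109), H2-DMa (-1.33, adjusted p = 6.77e-05) and H2-DMb1 (-0.67, adjusted p = 0.0178) were lower, and Cd80 (0.54, adjusted p = 0.0210) was higher. Between the ID8 groups edgeR then called 3 members, H2-DMa (1.12, adjusted p = 0.00362), H2-DMb1 (0.84, adjusted p = 0.0193) and Cd74 (1.56, adjusted p = 0.0464), as higher in Tim4KO. Of all genes 5.74% were then called, 2.24% as higher. Without WT ID8 1 the differences between the ID8 groups were smaller than with all libraries, at 0.06 for Cd74 (0.50 with all), 0.06 for H2-Aa (0.49 with all), 0.25 for H2-Ab1 (0.66 with all) and 0.40 for H2-DMa (0.69 with all). Without WT naive 1, 0 members were called with challenge in WT cells. None of these fits is preferred here, since the libraries were picked for their effect on the result. WT ID8 3 also stood apart from WT ID8 1 and 2 outside the 10 genes. In the check of replicate numbers described below, its deviations correlated with theirs at r = -0.78 and -0.83. Theirs correlated with each other at 0.30. Within the other groups such r lay between -0.65 and -0.16. Its neutrophil marker sum was 12.3 CPM, against 32.6 and 29.8 CPM, while its B-cell and mast cell sums lay between theirs. The cause was not tested.

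Cells that carry much class II were sought by their markers. The full list of 11 small macrophage and dendritic cell markers summed to 87.5 to 110 CPM in WT naive, 93.3 to 109 in Tim4KO naive, 43.7 to 88.5 in WT ID8 and 63.8 to 82.7 in Tim4KO ID8. The WT ranges overlapped, since WT ID8 3 (88.5 CPM) stood above WT naive 1 (87.5 CPM), and the Tim4KO ranges did not. Of the 8 markers tested, 4 were called lower in WT cells (median log2 change -0.80) and 1 in Tim4KO cells (median 0.08). Of all tested genes 12.3% were called lower in WT cells and 5.06% in Tim4KO cells. WT naive 1, highest for the class II genes, had the lowest sum of the 6 naive libraries, and WT ID8 3 the highest of WT ID8, where the first library had 70.1 and the second 43.7 CPM. The order of this sum thus matched that of the class II genes for WT ID8 3 and not for WT naive 1.

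The sum of 12 B-cell markers was 107 to 129 CPM in naive and 51.6 to 70.6 CPM in challenged libraries, and WT naive 1, at 119 CPM, lay below WT naive 3 (127) and Tim4KO naive 2 (129). Of 8 tested, 5 were called lower in WT cells (median -1.74) and 2 in Tim4KO cells (median -0.76), beside 12.3% and 5.06% of all genes. Most of the sum was Bank1, at group means of 48.4 to 102 CPM. No marker of either kind was at 0 in all libraries of a group. Single markers called lower with challenge in WT cells included Ighm (log2 change -2.41, edgeR adjusted p = 0.000248) and Cd209a (-2.79, edgeR adjusted p = 3.49e-06).

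Narrower sets were picked from these lists after the values had been seen, and they gave another order. The other 11 B-cell markers, without Bank1, summed to 18.2 to 25.7 CPM in WT naive, 11.9 to 16.3 in Tim4KO naive, 4.21 to 10.9 in WT ID8 and 6.76 to 9.23 in Tim4KO ID8. A set of 5 dendritic cell markers (Flt3, Zbtb46, Xcr1, Clec9a and Ccr7) ran from 6.34 to 12 CPM in WT naive, 8.45 to 9.85 in Tim4KO naive, 3.44 to 6.21 in WT ID8 and 4.46 to 7.03 in Tim4KO ID8. For these narrower sets WT naive 1 was the highest library. Within WT ID8 the third library, with 471 CPM of summed class II transcripts, had 4.38 and 3.51 CPM of them, while the first, with 125 CPM, had 10.9 and 6.21 CPM.

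Markers of other cells moved with challenge as well. Their calls stand beside 12.3% of all genes called lower and 19.5% called higher in WT cells. In Tim4KO cells 5.06% of all genes were called lower, and 1836 of 15943 were called higher. Mast cell markers fell in WT cells for 4 of 4 tested (median -2.79) and in Tim4KO cells for 2 of 4 (median -1.86), and the sum of 5 went from 14.0 to 34.2 CPM in WT naive and 12.4 to 30.8 in Tim4KO naive down to 1.61 to 4.81 in WT ID8 and 4.78 to 9.15 in Tim4KO ID8. Neutrophil markers rose in WT cells for 3 of 5 tested (median 2.32) and in Tim4KO cells for 2 of 5 (median 1.37), and the sum of 8 was 8.17 to 8.88 CPM in WT naive, 8.65 to 10.4 in Tim4KO naive, 12.3 to 32.6 in WT ID8 and 22.5 to 33.5 in Tim4KO ID8. Epithelial, mesothelial and ID8 markers summed to 1.05 to 20.0 CPM, with the highest sum in WT naive 1. The part of any of these cells in the results was not tested.

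**Figure D4:**
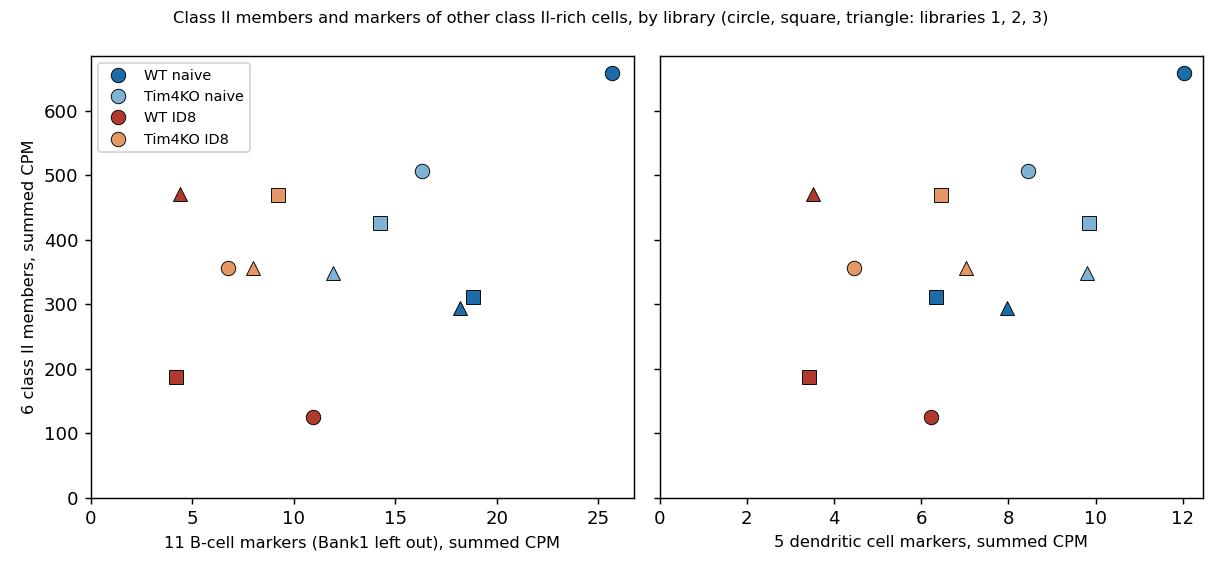
Summed CPM of the 6 class II genes in each library (vertical axis) against the summed CPM of 11 B-cell markers without Bank1 (left) and of 5 dendritic cell markers (right); colours are groups and shapes are libraries 1, 2 and 3. WT naive 1 is highest on every axis, and WT ID8 3 has 471 CPM of class II transcripts with 4.38 and 3.51 CPM of these markers. The markers were picked from longer lists after their values had been seen, and the full lists gave another order. Over all 11 small macrophage and dendritic cell markers, WT naive 1 had the lowest naive sum (87.5 CPM). WT ID8 3 had the highest sum of WT ID8 there (88.5 CPM). Over all 12 B-cell markers WT naive 1 (119 CPM) lay below WT naive 3 (127 CPM).

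Ratios between members within a library do not depend on scaling. The 6 ratios examined were chosen after the values had been seen, so they are given as a description with no test, and all are ratios of CPM per kilobase of exon. The ratio of H2-Aa to H2-Ab1 was 0.431 to 0.563 in the 6 naive libraries and 0.332 to 0.408 in the 6 ID8 libraries. It was 1.37-fold lower after challenge (log2 difference -0.46), with like values in WT (-0.47) and Tim4KO (-0.45). The naive and ID8 libraries failed to overlap for 1.73% of all genes set against H2-Ab1 in this way. H2-Ab1 itself varied more within groups than 99.4% of genes of like count, which can lower that share. To a lesser degree this holds for H2-DMb1 (92.0%), used below. Such shares are thus no measure of how rare a separation is.

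In 3 further ratios the conditions did not overlap. H2-Eb1 to H2-Ab1 was 0.349 to 0.415 in naive and 0.155 to 0.308 in ID8 libraries (log2 difference -0.66, of which -0.96 in WT and -0.36 in Tim4KO, a gap that was not tested). H2-DMa to H2-DMb1 was 0.883 to 1.11 in naive and 0.565 to 0.758 in ID8 libraries (-0.58, with 7.75% of all genes separating against H2-DMb1). Cd86 to Cd80 was 4.98 to 6.79 in naive and 3.16 to 4.48 in ID8 libraries (-0.61, with 11.8% separating against Cd80). In each of these ratios the numerator gene was relatively scarcer after challenge in both genotypes. The other 2 ratios overlapped between conditions: Cd86 to Cd40 differed by -0.53 on the log2 scale, and Cd74 to H2-Ab1, at 3.89 to 6.42 in naive and 2.95 to 5.03 in ID8 libraries, by -0.33. A ratio shows that 2 genes differed unequally and not which of them did.

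**Figure D5:**
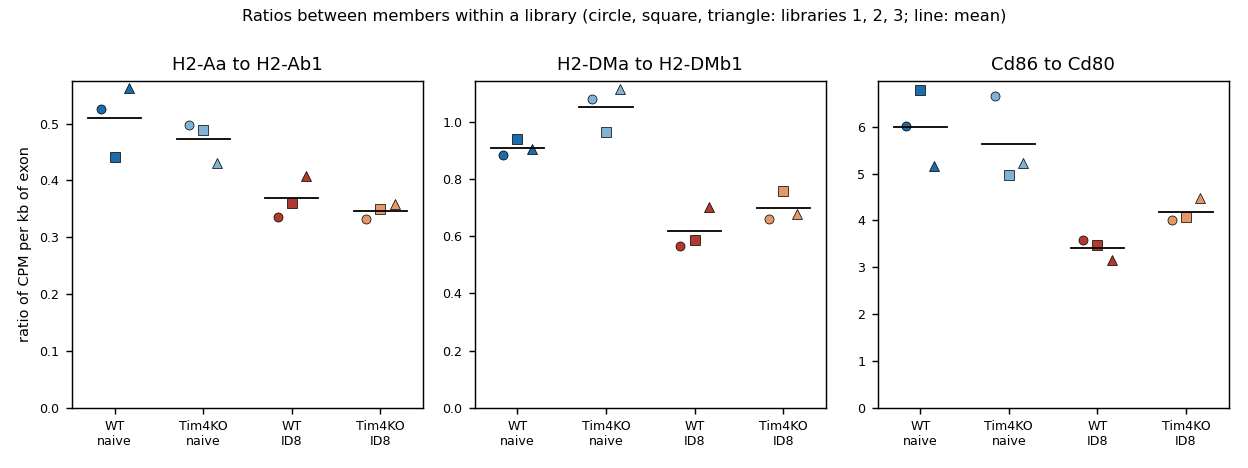
Ratio of CPM per kilobase of exon between H2-Aa and H2-Ab1, H2-DMa and H2-DMb1, and Cd86 and Cd80 in every library, on axes that start at 0; circles, squares and triangles are libraries 1, 2 and 3 and lines are means. In each panel the 6 naive libraries lie above the 6 ID8 libraries, for example at 0.883 to 1.11 against 0.565 to 0.758 for H2-DMa to H2-DMb1.

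The order of group means placed WT ID8 last for 8 of the 10 genes, all but Cd40 and Cd80. Of the 30 steps between neighbours in these orders, 2 separated groups whose libraries did not overlap: Ciita from Tim4KO ID8 down to WT ID8, and Cd86 from WT naive down to Tim4KO ID8. All other neighbouring groups overlapped. The shares of all genes with WT ID8 last, or with such steps, were not counted. Because the class II genes moved together, their places in the order are not separate observations. Neither count is therefore read as a result about the members.

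Genes upstream of the members were examined as lists, whose counts are read against the 31.8% of all genes called with challenge in WT cells (19.5% higher, 12.3% lower) and the 16.6% called in Tim4KO cells. Of 7 factors that bind class II promoters, 3 were called in WT cells with challenge: Rfx5, a subunit of RFX, fell by 0.63 on the log2 scale (edgeR adjusted p = 0.0255), and the NF-Y subunits Nfyb (0.45, edgeR adjusted p = 0.0211) and Nfyc (0.50, edgeR adjusted p = 0.0113) rose. In Tim4KO cells 0 of the 7 were called. Of 9 genes on the interferon gamma route to Ciita, 2 fell in WT cells, the receptor chain Ifngr1 (-0.69, edgeR adjusted p = 0.00132) and the transcription factor Irf2 (-0.66, edgeR adjusted p = 0.00110). Both also fell in Tim4KO cells (-0.67, edgeR adjusted p = 0.00297, and -0.58, edgeR adjusted p = 0.00457), together with the kinase Jak2 (-0.44, edgeR adjusted p = 0.0469). The WT counts of both lists, 3 of 7 and 2 of 9, are within 1 gene of the share of all genes.

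Downstream, of 9 genes of class II proteolysis and surface turnover, 4 rose and 2 fell in WT cells, and 4 rose and 3 fell in Tim4KO cells, beside 31.8% and 16.6% of all genes called. The lists as such were not tested. The protease Ctsl rose by 0.98 in WT cells (edgeR adjusted p = 8.81e-05) and 0.90 in Tim4KO cells (edgeR adjusted p = 0.000342), and the tetraspanin Cd63 rose by 1.5 (edgeR adjusted p = 0.000129) and 1.57 (edgeR adjusted p = 0.000203). The tetraspanin Cd82 fell, by 0.82 in WT cells (edgeR adjusted p = 0.00273) and 0.998 in Tim4KO cells (edgeR adjusted p = 0.00134). The WT and Tim4KO challenge comparisons share no library, but they come from the same fit and use the same estimate of each gene's spread. Their calls are therefore not independent. The difference between these comparisons was not called for any gene of these lists.

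Of 12 other costimulatory ligands 6 were tested. In WT cells 3 rose with challenge: Cd274, which encodes the inhibitory ligand PD-L1 (1.48, edgeR adjusted p = 0.0157), Tnfsf9, the 4-1BB ligand gene (1.48, edgeR adjusted p = 0.0276), and the adhesion molecule Icam1 (0.70, edgeR adjusted p = 0.0152). In Tim4KO cells the ICOS ligand gene Icosl fell by 1.51 (edgeR adjusted p = 0.0147). Of 12 genes of CD40 signalling, Traf3 rose (0.54, edgeR adjusted p = 0.0251) and the kinase gene Map3k14 fell (-0.91, edgeR adjusted p = 0.00309) in WT cells, and Nfkb1 fell in Tim4KO cells (-0.44, edgeR adjusted p = 0.0431). The 2 of 12 in WT cells lie below the share of all genes called. In both genotype comparisons edgeR called 0 genes of these 5 lists. An unadjusted edgeR p under 0.05 was found for 1 promoter factor and 2 turnover genes in naive cells. In ID8 cells it was found for 2 promoter factors, 1 turnover gene, 1 ligand and 1 CD40 signalling gene. Of all 15943 tested genes, 999 in naive and 1935 in ID8 cells had such a p.

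Genes whose levels resembled the members were ranked by Pearson's r of log2(CPM + 0.5) over the 12 libraries, among 9722 genes, as a description of libraries that share their depth. For H2-Ab1 the nearest 5 outside the members were Ift172 (0.90), Paox (0.84), Mrtfb (0.83), Dexi (0.82) and Rab3d (0.81). Ciita lay nearest to Plekhh3 (0.83), Ptpn18 (0.81) and Ly86 (0.81). Cd40 was nearest to Dnajb5 (0.89) and Ccl25 (0.87), Cd80 to Mdm2 (0.95) and Ppp6r3 (0.90), and Cd86 to Zfp68 (0.95) and Ddx50 (0.91). After group means were taken off, the gene nearest to H2-Ab1 was again Ift172 (0.96), and Tle1 was nearest to Cd86 (0.96).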

How the data were processed

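The 12 libraries measured polyadenylated RNA of sorted macrophages, amplified with the SMART-Seq mRNA LP kit, per the labels' protocols. The values are whole-number counts per Ensembl gene in 1 deposited table, read as raw because library totals differ. FastQC, STAR 2.5 and 2 genome builds, mm10 and GRCm39, are named in the submitters' processing notes without their roles. The counter, its annotation, and the handling of strand and multi-mapping reads are not given in the sources used here. GENCODE M21 named 52029 of the 57010 identifiers, all 10 members among them, and gave exon lengths and overlaps.

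Tests on these counts used edgeR 4.0.16 (R 4.3.3): filterByExpr by group, which left 15943 genes, TMM scaling, and a robust quasi-likelihood fit of 4 group means to the 12 libraries (8 residual degrees of freedom). P-values were adjusted by Benjamini-Hochberg over all tested genes, and a gene was called under 0.05. The SE of a log2 fold change was its size over the root of F, and 95% intervals use the t quantile. Alternatives were RLE (DESeq2 size factors) and upper-quartile scaling, no filter, DESeq2 1.42.0, limma voom 3.58.1, only the 2 groups compared, a replicate block, a background covariate and each library left out. Deviations of same-numbered WT naive and WT ID8 libraries from their group means correlated at r = 0.103, 0.104 and 0.309. Of these values, only 0.309 exceeded those of all differently numbered WT naive and WT ID8 libraries. WT naive 1 reached 0.141 with WT ID8 2, and WT naive 2 reached 0.157 with WT ID8 1. The number was thus not shown to pair the libraries, and blocked values stand beside the WT challenge calls as an alternative only. In the other comparisons not every same-numbered pair reached 0.1. Single libraries were left out of the ratios as an alternative added after the values were seen. Background was the sum over 1713 olfactory and vomeronasal receptor genes of at most 1 CPM on average. The tests were checked on simulated counts. Without molecular identifiers, floors in counts cover counting error only.

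The members, lists and tests were chosen with earlier results of these data known. Every member is named. From each other list, up to 3 called genes with the smallest p per comparison were eligible, and any of the other class II chains. For likeness, the 5 genes with the highest r for H2-Ab1, Ciita, Cd40, Cd80 and Cd86 were eligible. Promoter windows were credited to RefSeq on GRCm38.p6 and no coordinates of the authors' files were used. Genes of chromosome 18 were not searched for motifs.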

Additional observations from a re-analysis of the deposited data

How the results depend on the processing

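In 0 of the settings run did a called result change its sign. Of the members called in WT cells with challenge (3), 1 was left with limma voom, 0 in the fit to only the 2 groups and 1 with the background covariate. That covariate moved the WT change from -0.93 to -1.72 for H2-Aa and from -0.54 to -1.23 for H2-Ab1. It moved H2-Eb1 from -1.16 to -2.33 and Cd74 from -0.58 to -1.84, and none of these was called. Between the ID8 groups it gave 1.72 for H2-Eb1 and 1.33 for Cd74, also not called. The WT change of Ciita went the other way, from -1.47 to -0.92. Counts over all genes moved more than 1.5 times as follows. In naive cells the genotype comparison gave 59 genes with no filter on low counts, 52 with DESeq2, 4 with limma voom and 2 in the fit to only the 2 groups, against 7. In ID8 cells it gave 264 with no filter, 266 with DESeq2 and 179 with the background covariate, against 9. The WT challenge comparison gave 3102 with only the 2 groups, against 5067, and the interaction 73 with no filter, 11 with DESeq2 and 2 with the background covariate, against 0.

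With 1 library left out, the genotype comparisons called 1 to 29 genes (naive, 0 members) and 1 to 997 (ID8, 0 to 3 members), the challenge comparisons 3362 to 7230 (WT, 0 to 5 members) and 1222 to 3595 (Tim4KO, 0 to 1 member), and the interaction 0 to 368 (0 members). A group then holds 2 libraries.

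Of 18 same-numbered pairs of libraries 6 had deviations correlated above 0.1, the 3 pairs of the WT challenge comparison among them, and 5 of 12 libraries correlated best with their own number. The replicate block gave 3 genes in naive and 14 in ID8 genotype comparisons, and 1 member in the WT challenge comparison, Ciita, where it ended the calls of H2-DMa and Cd80; it changed no other member's call.

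Depth limits Ciita most, at 10 to 140 counts per library. The sort, the origin of the libraries and the handling of strand limit the reading of all 10 genes.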
